A study of Homo sapiens with 24 samples.

Results

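10 immediate early transcription factor genes were followed through androgen treatment and through knockdown of the acetyltransferases p300 and CBP. They were FOS, FOSL2, JUN, JUNB, JUND and ATF3 of the AP-1 and ATF family, EGR1, and the orphan nuclear receptors NR4A1, NR4A2 and NR4A3. All probes that the platform annotation assigns to 1 of these 10 symbols were taken, which gave 16 of 47231 probes on the array. A probe was called detected on an array where its detection p-value lay below 0.05, and it was kept if that held for 4 or more of the 24 arrays. The filter kept 8 of these probes, for 7 genes, which were tested among 12438 genes.

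The cells were C4-2B, a castration-resistant derivative of the LNCaP prostate cancer line, held in hormone-depleted medium before treatment. There were 6 groups of 4 arrays: cells given siRNA against p300 (sip300) and then 10 nM dihydrotestosterone (DHT, the active androgen) for 16 h, sip300 cells at 0 h, cells given siRNA against CBP (siCBP) at 16 h and at 0 h, and cells given a non-specific siRNA (siNS) at 16 h and at 0 h. No group was sampled at 16 h without DHT. Differences between 16 h and 0 h, named here by DHT, therefore cannot be told apart from effects of time in culture or handling. Each array was a single-colour hybridisation of RNA from a cell population, so fewer expressing cells and less RNA per cell cannot be told apart. The labels number the replicates 1 to 4 without stating whether they were separate cultures, so any p-value given here rests on variation among these samples that may be technical.

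Immediate early genes are transcribed from poised promoters within minutes of a stimulus, without new protein synthesis, and their mRNAs are short-lived. Many carry a cAMP response element (CRE) bound by CREB, and CBP was first described as a coactivator of phosphorylated CREB, with p300 as its close relative. FOS and JUN proteins pair into AP-1, EGR1 is a zinc finger factor induced through serum response factor at CArG boxes, and NR4A receptors act without a known endogenous ligand. A sample at 16 h lies well beyond the first wave of such induction, so the comparisons describe sustained levels.

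Promoter sequence was available from RefSeq (GRCh38.p14) for 9 of the 10 genes, as the 250 bases before the annotated start, and 4 are shown because they hold the elements for which the family is known. The search covered both strands for the full CRE TGACGTCA, the short CRE TGACG (which also lies inside the full CRE), the AP-1 site TGAGTCA, the NR4A element AAAGGTCA, the EGR site GCGTGGGCG and the CArG box. Capitals mark every match. The sequences are written 5′ to 3′ on the strand of the gene, for FOS (chr14:75278578-75278827, plus strand), JUND (chr19:18281623-18281872, minus strand), EGR1 (chr5:138465229-138465478, plus strand) and the upstream start of ATF3 (chr1:212565157-212565406, plus strand).
FOS: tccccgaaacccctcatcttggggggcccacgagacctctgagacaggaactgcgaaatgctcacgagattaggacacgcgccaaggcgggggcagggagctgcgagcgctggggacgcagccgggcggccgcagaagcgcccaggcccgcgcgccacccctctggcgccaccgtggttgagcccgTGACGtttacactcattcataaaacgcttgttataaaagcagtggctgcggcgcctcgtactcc
JUND: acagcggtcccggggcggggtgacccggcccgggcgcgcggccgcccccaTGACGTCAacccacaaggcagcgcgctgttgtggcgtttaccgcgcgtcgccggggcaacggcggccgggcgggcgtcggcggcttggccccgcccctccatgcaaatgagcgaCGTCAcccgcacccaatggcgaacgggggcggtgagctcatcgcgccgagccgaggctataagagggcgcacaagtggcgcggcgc
EGR1: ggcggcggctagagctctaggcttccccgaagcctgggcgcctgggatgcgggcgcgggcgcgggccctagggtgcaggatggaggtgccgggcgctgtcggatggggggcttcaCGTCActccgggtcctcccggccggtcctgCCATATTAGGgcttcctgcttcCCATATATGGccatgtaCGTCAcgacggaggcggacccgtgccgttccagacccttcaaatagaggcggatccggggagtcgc
ATF3: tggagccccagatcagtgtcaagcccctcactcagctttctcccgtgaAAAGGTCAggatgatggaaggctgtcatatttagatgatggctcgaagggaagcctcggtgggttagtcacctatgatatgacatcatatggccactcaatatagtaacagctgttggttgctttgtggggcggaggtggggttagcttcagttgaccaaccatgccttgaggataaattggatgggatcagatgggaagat

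A short CRE lay in 7 of the 9 promoters (FOS, FOSL2, JUN, JUNB, JUND, EGR1 and NR4A3), against 21.2% of 35116 RefSeq promoters of the same length. JUND alone among the 9 held the full CRE, which 1.65% of promoters hold. EGR1 held 2 CArG boxes (1.16% of promoters hold at least 1), at -105 and -83 from the start, between short CREs at -135 and -66. ATF3 and NR4A1 held no short CRE in the 2 promoter windows available for each, and other starts of these genes were not searched. The upstream window of ATF3 held the NR4A element found in 1.05% of promoters. No AP-1 or EGR site of these letters was found in the 9 promoters, against 4.2% and 0.72% of all promoters. These matches describe the sequence only.

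Both knockdowns were visible in the targeted transcripts. EP300 averaged 7.22 ± 0.38 with DHT and 7.28 ± 0.237 without it in sip300 cells, against 8.41 ± 0.337 and 8.16 ± 0.299 in siNS cells (log2 signal, SD, n = 4). CREBBP, which encodes CBP, averaged 7.74 ± 0.308 with DHT and 7.99 ± 0.362 without it in siCBP cells, against 9.48 ± 0.184 and 9.67 ± 0.214 in siNS cells. CREBBP was higher in sip300 than in siNS cells averaged over both times (0.49 ± 0.134, limma adjusted p = 0.00803). The androgen-induced gene FKBP5 was higher at 16 h than at 0 h by 2.25, 2.65 and 2.70 (log2) in sip300, siCBP and siNS cells. The luminal markers KRT8, KRT18, HOXB13, TMPRSS2 and FOLH1 were detected on 24 of 24 arrays and the basal keratins KRT5, KRT14 and KRT15 on 0. The number of probes detected on an array ranged over 17663 to 19830, and the 2 slides of 12 arrays, each with 2 arrays of every group, had mean raw signals of 782 ± 70.1 and 643 ± 43.7 (SD over arrays). The number of arrays limits the precision of every value below.

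3 members stayed at background. FOS (chromosome 14, 75278828 to 75282230), the partner that gives AP-1 much of its inducible activity, was detected on 0 of 24 arrays, with group means between 4.69 and 4.89 on the log2 scale. NR4A1 was detected on 3 arrays by its brighter probe, 2 of sip300 cells at 0 h and 1 of siNS cells at 16 h, and on 0 by the other. NR4A3 was detected on 1 array, of sip300 cells at 16 h, over its 3 probes. No difference was tested for these genes, and their transcripts were not detectable at this signal rather than shown to be absent.

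NR4A2 (Nurr1, chromosome 2, 156324437 to 156332721), a nuclear receptor that binds its element as a monomer or with RXR, had the largest share of its variation between groups of the 7 genes tested, 77%. In sip300 cells its signal was 5.73, 5.30, 5.22 and 5.83 with DHT, against 7.24, 7.28, 6.81 and 7.45 at 0 h (log2). The 4 arrays with DHT all lay below the 4 at 0 h, and 3.29% of all genes had no overlap in this comparison. In siCBP cells it was 5.92, 6.10, 5.87 and 5.24 with DHT, against 6.18, 7.14, 6.39 and 5.52 at 0 h, and these ranges overlapped. In siNS cells it was 4.94, 5.68, 5.01 and 5.28 with DHT, against 5.69, 6.21, 5.57 and 5.48 at 0 h, again with overlap. The probe was detected on 4 of 4 arrays only in sip300 cells at 0 h. It was detected on 2 and 3 arrays of siCBP cells with and without DHT, on 2 of sip300 cells with DHT, and on 0 and 1 of siNS cells with and without DHT. Its signal in siNS cells with DHT was therefore background, and differences from that group carry no measured fold.

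**Figure D1:**
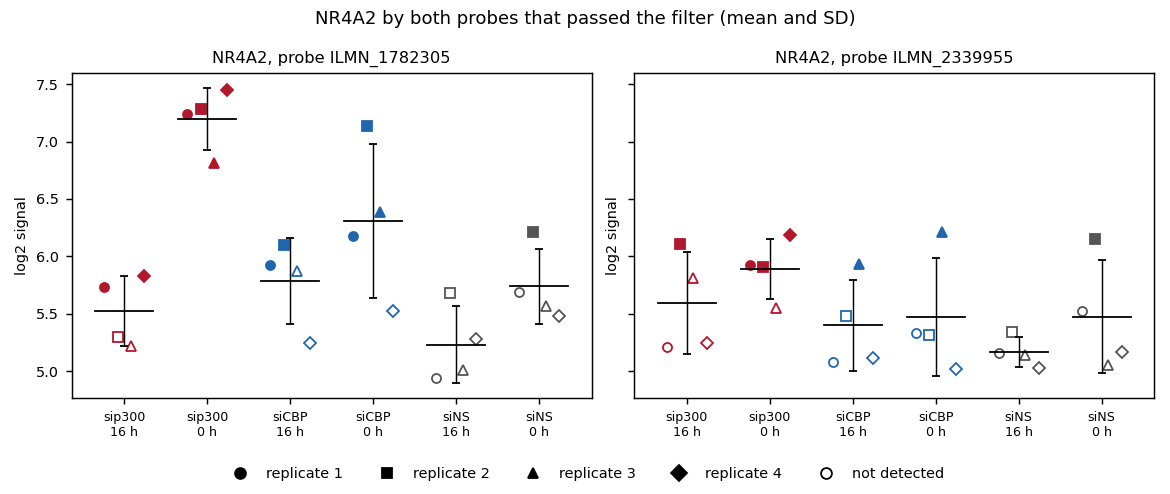
NR4A2 log2 signal on each of the 24 arrays by group, for both probes that passed the filter; symbols give the replicate number, open symbols arrays with a detection p of 0.05 or more, horizontal lines the group mean and bars the SD (n = 4). On the left probe the sip300 arrays at 0 h (6.81 to 7.45) lie above the sip300 arrays at 16 h (5.22 to 5.83) and above the siNS arrays at 0 h (5.48 to 6.21), while on the right probe the same groups overlap.

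Without DHT, NR4A2 was higher in sip300 cells than in siNS cells by 1.46 ± 0.27 (log2 difference ± SE, 95% interval 0.90 to 2.02; limma adjusted p = 0.0017), and the arrays did not overlap, as for 13.2% of all genes. The siNS arrays at 0 h gave 1 detection of 4, and the difference was 0.61 without background correction (limma adjusted p = 0.00232). Slide 1 alone gave 1.42, not called (limma adjusted p = 0.098), and slide 2 alone 1.5 (limma adjusted p = 0.0426). It was the 1 member of 7 called in this comparison, in which 9.94% of all genes were called. With DHT the 2 groups overlapped (5.52 ± 0.307 in sip300 cells and 5.23 ± 0.334 in siNS cells, SD, n = 4; limma adjusted p = 0.523). Averaged over both times it was called higher in sip300 cells (limma adjusted p = 0.00155), as 1 of 7 members in a comparison that called 28.7% of all genes, but this average takes in siNS cells with DHT, where the probe was detected on 0 of 4 arrays, so no fold is given. Neither count is a result about the members as a set.

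After DHT, NR4A2 fell by 1.68 ± 0.27 in sip300 cells (95% interval -2.23 to -1.12; limma adjusted p = 0.00111), a comparison in which 0.708% of genes were called and 1 of 7 members. Within the slides the change was -1.26 on slide 1, where it was not called (limma adjusted p = 0.195), and -2.09 on slide 2 (limma adjusted p = 0.0226). Without background correction it was -0.71 and still called (limma adjusted p = 0.00229). In siCBP and siNS cells the means were also lower with DHT, at 5.78 ± 0.377 against 6.31 ± 0.67 in siCBP cells (limma adjusted p = 0.538) and 5.23 ± 0.334 against 5.74 ± 0.326 in siNS cells (limma adjusted p = 0.49). Averaged over the 3 siRNA arms NR4A2 fell by 0.90 ± 0.156 (limma adjusted p = 0.000348), an average that includes siNS cells at background with DHT. It was -0.39 without background correction (limma adjusted p = 0.000524) and -0.53 on slide 1 alone, where it was not called (limma adjusted p = 0.209). The difference in DHT response between sip300 and siNS cells was -1.17 ± 0.381 (95% interval -1.96 to -0.38), which did not pass adjustment over all genes (limma adjusted p = 1). That test called 0 of 7 members by limma (1 at an unadjusted p under 0.05) and 0.00804% of all genes. A fall in sip300 cells that exceeds the one in siNS cells was therefore not established, and the siNS value with DHT is at background.

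In siCBP cells NR4A2 was between the other arms at 0 h. It averaged 6.31 ± 0.67 there, against 5.74 ± 0.326 in siNS cells (log2 difference 0.57, 95% interval 0.01 to 1.13; limma adjusted p = 0.999). The siNS mean rests on 1 detected array of 4. Averaged over both times siCBP against siNS was not called as fitted (limma adjusted p = 0.311) and was called with the authors' processed values (limma adjusted p = 0.014). No size is given because siNS cells with DHT were at background. The authors' processed values had less variation by replicate number than the values used here and were fitted without a block. Adjusted p-values from them, here and below, may therefore be too small. Set directly against siCBP cells at 0 h, sip300 cells were higher by 0.89 ± 0.27 (limma adjusted p = 0.0526, and adjusted p = 0.0173 with the replicate number as a block). That comparison called 0 of 7 members (1 at an unadjusted p under 0.05) and 6.01% of genes by limma, and 1 of 7 members and 15.5% of genes with the block. The order of the group means at 0 h was therefore sip300, siCBP and siNS, and neither neighbouring pair was called with the fit as described. The sip300 against siCBP pair was called with the authors' processed values (0.86, limma adjusted p = 0.00323), and without replicate 2 of siCBP cells at 0 h, which read 7.14 (1.16, limma adjusted p = 0.00851). It was also just past the threshold (limma adjusted p = 0.0456 to 0.0497) without replicate 3 of sip300 cells at 0 h, replicate 4 of siCBP cells with DHT, replicate 2 of siNS cells at 0 h or replicate 2 of siNS cells with DHT.

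The second NR4A2 probe gave smaller differences. It read 5.21, 6.11, 5.81 and 5.24 in sip300 cells with DHT, against 5.92, 5.91, 5.55 and 6.19 at 0 h, and was detected on 7 of 24 arrays. In siNS cells at 0 h it read 5.52, 6.15, 5.05 and 5.17, so that sip300 and siNS cells overlapped on this probe. Its change with DHT in sip300 cells was -0.30 ± 0.266, and its sip300 minus siNS difference at 0 h was 0.42 ± 0.266 (limma adjusted p = 0.356). Neither was called. Averaged over both times the sip300 minus siNS difference on this probe was 0.42 ± 0.188 (limma adjusted p = 0.102). That average takes in siNS cells with DHT, where this probe was detected on 0 of 4 arrays. The DHT response of this probe in sip300 minus siNS cells was 0.00 ± 0.377. With the mean of both probes as the NR4A2 value, the fall with DHT in sip300 cells was -0.99 and the rise at 0 h 0.94, both called, on a scale where both are smaller than with the brighter probe alone (limma adjusted p = 0.0281 and 0.00861).

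A stromal transcript moved in the same direction as NR4A2 between sip300 and siNS cells. Of 5 stromal markers 2 passed the filter: ACTA2, smooth muscle actin, was higher in sip300 cells at 0 h by 1.64 ± 0.354 (limma adjusted p = 0.00539), and COL1A1, a collagen, differed by 0.49 ± 0.256 (limma adjusted p = 0.236). Their summed signal was 234 to 424 in sip300 cells at 0 h, against 99.8 to 186 in siNS cells at 0 h. It was 200 to 368 in sip300 cells with DHT, against 128 to 169 in siNS cells with DHT. The defining stromal genes COL1A2, DCN and LUM were detected on at most 2, 2 and 3 of 24 arrays. Of 5 neuroendocrine markers 2 passed, ENO2 (mean log2 signal 8.18, detected on 24 of 24 arrays) and the dimmer INSM1 (5.6, detected on 11). Their summed signal, to which ENO2 gave the larger part, was 368 to 746 in sip300 cells at 0 h, against 183 to 436 in siNS cells at 0 h. It was 396 to 713 in sip300 cells with DHT, against 174 to 594 in siNS cells with DHT. Limma called 0 of the 2 between these arms at either time (1 at each time with the replicate block, ENO2). Averaged over both times it called ENO2 higher, where 16.3% of all genes were higher. SYP was detected on 0 arrays and CHGA on at most 1. Some luminal markers moved as well. Of 6 measured, 2 were called lower and 0 higher in sip300 than in siNS cells at 0 h. These were the androgen-regulated protease genes TMPRSS2 (-1.89 ± 0.337, limma adjusted p = 0.00144) and KLK3 (-2.51 ± 0.661, limma adjusted p = 0.0178). Both were also lower with DHT (-2.15 and -2.12, limma adjusted p = 0.000287 and 0.0344). The shares of all genes called lower were 4.42% at 0 h and 6.41% with DHT. KRT8 went the other way at 0 h without a call (0.48 ± 0.19, limma adjusted p = 0.107). With the replicate block 1 luminal marker was higher and 3 were lower with DHT. The summed luminal signal was 5000 to 8900 in sip300 cells at 0 h, against 6020 to 8080 in siNS cells at 0 h, and 5860 to 7570 in sip300 cells with DHT, against 8540 to 12600 in siNS cells with DHT. The part of these transcripts in the NR4A2 result was not tested.

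ATF3 (chromosome 1, 212565407 to 212620777), a stress-induced bZIP factor that also represses, was the member that rose with DHT. Its signal was 8.47, 8.13, 8.37 and 8.62 with DHT in sip300 cells, against 7.74, 7.75, 8.02 and 8.57 at 0 h (log2). In siCBP cells it was 8.18, 8.48, 8.37 and 8.67 with DHT, against 7.95, 8.05, 7.71 and 8.20 at 0 h. In siNS cells it was 8.44, 9.02, 8.99 and 8.47 with DHT, against 8.16, 8.59, 7.82 and 8.40 at 0 h. Each arm was higher with DHT on average, by 0.38, 0.44 and 0.49 in sip300, siCBP and siNS cells, and in each arm the arrays overlapped and no call was made. Averaged over the arms ATF3 rose by 0.44 ± 0.116 (95% interval 0.20 to 0.67; limma adjusted p = 0.0203), though slide 2 alone gave 0.23 (limma adjusted p = 0.56). The averaged comparison called 2 of 7 members, ATF3 upward and NR4A2 downward, and 7.31% of all genes. With the replicate number as a block it called 3 of 7 members and 13.3% of genes. The other 2 ATF3 probes were detected on 0 of 24 arrays.

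With the fit as described ATF3 was not called between the siRNA arms. Its DHT response differed between sip300 and siNS cells by -0.11 ± 0.283, and between siCBP and siNS cells by -0.04 ± 0.283. Averaged over both times it differed by -0.28 in both knockdowns, with 95% intervals of -0.57 to 0.01 for sip300 against siNS and -0.58 to 0.01 for siCBP against siNS. The averaged sip300 difference was called with the authors' processed values (-0.27, limma adjusted p = 0.0491) and without replicate 4 of sip300 cells at 0 h (-0.37, limma adjusted p = 0.0422).

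No gene of the JUN family, whose proteins are the obligate partners in AP-1, was called in any comparison with the fit as described. JUND (chromosome 19, 18279694 to 18281622), the member with the full CRE and the one that is expressed widely in unstimulated cells, read 13.21, 13.33, 13.11 and 13.11 in siCBP cells with DHT, against 12.93, 12.68, 12.73 and 12.90 at 0 h. In siNS cells it read 13.16, 13.53, 12.99 and 13.00 with DHT, against 12.85, 12.88, 12.99 and 12.89 at 0 h. In sip300 cells it read 13.14, 12.93, 12.95 and 13.13 with DHT, against 13.03, 12.79, 13.14 and 13.18 at 0 h. The DHT and 0 h arrays did not overlap in siCBP cells or, by less than the rounding at 12.99, in siNS cells. They overlapped throughout in sip300 cells. Arrays did not overlap for 6.06% of all genes in siCBP cells and 7.48% in siNS cells. The JUND differences were 0.38 ± 0.128 in siCBP cells (limma adjusted p = 0.166), 0.27 ± 0.128 in siNS cells (limma adjusted p = 0.419) and 0.00 ± 0.128 in sip300 cells, where the 95% interval was -0.26 to 0.27. Averaged over the arms the JUND difference was 0.22 ± 0.074, not called as fitted (limma adjusted p = 0.0821). It was called with quantile normalisation alone (0.21, limma adjusted p = 0.0396), with the authors' processed values (0.2, limma adjusted p = 0.0164) and with trended, robust variances (0.22, limma adjusted p = 0.0312). The authors' processed values also called JUND for DHT in siCBP cells (0.36, limma adjusted p = 0.0268). The difference in DHT response between sip300 and siNS cells was -0.26 ± 0.181, with a 95% interval of -0.64 to 0.11 (limma adjusted p = 1).

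JUN (chromosome 1, 58780791 to 58784047), the strongest activator of the family, was detected on every array. It read 9.95, 9.24, 9.22 and 9.60 with DHT in sip300 cells, against 10.10, 9.78, 9.38 and 9.94 at 0 h. In siCBP cells it read 9.93, 10.36, 9.27 and 9.57 with DHT, against 10.39, 10.65, 10.01 and 9.88 at 0 h. In siNS cells it read 10.17, 10.63, 9.57 and 9.66 with DHT, against 9.91, 10.54, 9.19 and 9.89 at 0 h. All 6 groups overlapped. With DHT the sip300 minus siNS difference was -0.50 ± 0.285 (95% interval -1.09 to 0.09; limma adjusted p = 0.257), and averaged over both times the siCBP minus siNS difference was 0.06 ± 0.201. The sip300 minus siNS difference with DHT was called with the authors' processed values (-0.45, limma adjusted p = 0.0375). JUNB (chromosome 19, 12791486 to 12793315), a weaker activator that can oppose JUN, had group means between 6.82 and 7.39, with SDs within groups of 0.303 to 1.15, and its sip300 minus siNS difference averaged over both times was -0.27 with a 95% interval of -0.92 to 0.39.

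JUN and JUNB followed the replicate number more than the treatment. Replicate number accounted for 66.2% of the variation of JUNB over the 24 arrays and the 6 groups for 9.73%. For JUN the shares were 46.2% and 26.6%, against medians over all genes of 19.9% for replicate number and 31.7% for group. JUNB on replicate 2 lay below its group mean in 6 of 6 groups, by -0.71 on average, at 6.54 and 6.46 in sip300 cells with and without DHT, 6.96 and 5.61 in siCBP cells and 6.46 and 6.33 in siNS cells. Its replicate 1 lay above it by 0.50 on average. JUN on replicate 3 lay below its group mean in 6 of 6 groups, by -0.43 on average. Slide accounted for 3.99% of the variation of JUNB and 0.0558% of that of JUN. The largest slide share among the 7 genes was that of EGR1, 16.8%, against a median over all genes of 3.77%. For replicate number JUND lay at the other end from JUNB, with 1.72%, and had 51.9% for group. NR4A2 had 77% for group.

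**Figure D2:**
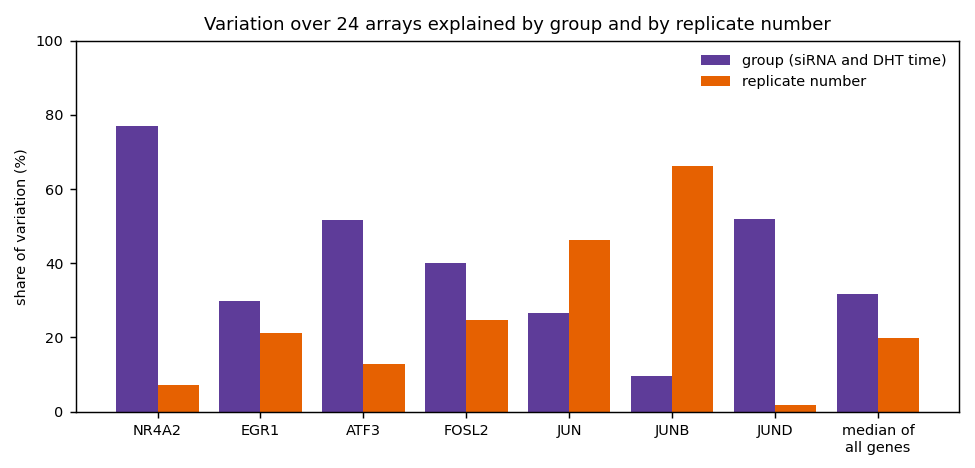
Share of the variation over 24 arrays (%) explained by the 6 groups and by the replicate number, for the 7 genes tested and as the median over all 12438 genes. Replicate number exceeds group for JUN (46.2% and 26.6%) and JUNB (66.2% and 9.73%), and group reaches 77% for NR4A2.

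FOSL2 (chromosome 2, 28392858 to 28417317), a FOS-family member with sustained rather than transient expression, read 6.24, 6.82, 6.10 and 6.48 with DHT in sip300 cells, against 5.42, 6.49, 5.58 and 5.49 at 0 h. It was detected on 4 of 4 arrays there with DHT and on 1 of 4 at 0 h. In siCBP cells it read 6.14, 6.64, 6.58 and 6.60 with DHT, against 6.16, 6.05, 5.83 and 6.13 at 0 h. In siNS cells it read 5.72, 6.34, 5.90 and 6.13 with DHT, against 6.25, 6.01, 5.37 and 6.56 at 0 h. The DHT differences were 0.66 ± 0.24 in sip300 cells, 0.45 ± 0.24 in siCBP cells and -0.02 ± 0.24 in siNS cells, and none was called as fitted. The authors' processed values called the one in sip300 cells (0.67, limma adjusted p = 0.0341). Averaged over the arms the difference was 0.36 ± 0.139, not called as fitted (limma adjusted p = 0.132). It was called with the replicate number as a block (limma adjusted p = 0.0427) or without replicate 2 of the sip300 cells at 0 h (0.45; limma adjusted p = 0.0282). It was also called with the authors' processed values (0.36, limma adjusted p = 0.0131).

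EGR1 (chromosome 5, 138465479 to 138469303), the zinc finger member, read 6.44, 6.99, 6.42 and 6.39 with DHT in sip300 cells, against 6.17, 5.93, 5.81 and 5.97 with DHT in siNS cells. These groups did not overlap, which was true of 19% of all genes in the same comparison. The difference was 0.59 ± 0.258 (95% interval 0.06 to 1.12; limma adjusted p = 0.131), and siCBP cells with DHT stood 0.60 ± 0.258 above siNS cells with overlap (limma adjusted p = 1). The sip300 against siNS difference was called with the authors' processed values (0.59, limma adjusted p = 0.0264). At 0 h EGR1 read 7.05, 6.09, 6.56 and 6.44 in sip300 cells and 6.22, 6.13, 6.83 and 5.84 in siCBP cells, against 7.02, 6.4, 6.0 and 6.38 in siNS cells, and all 3 overlapped. Its DHT difference was 0.02 in sip300 cells, 0.31 in siCBP cells and -0.48 in siNS cells, each ± 0.258 and none called. With group means removed, EGR1 on slide 1 minus slide 2 was -0.33 on average, and each slide held 2 arrays of every group.

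**Figure D3:**
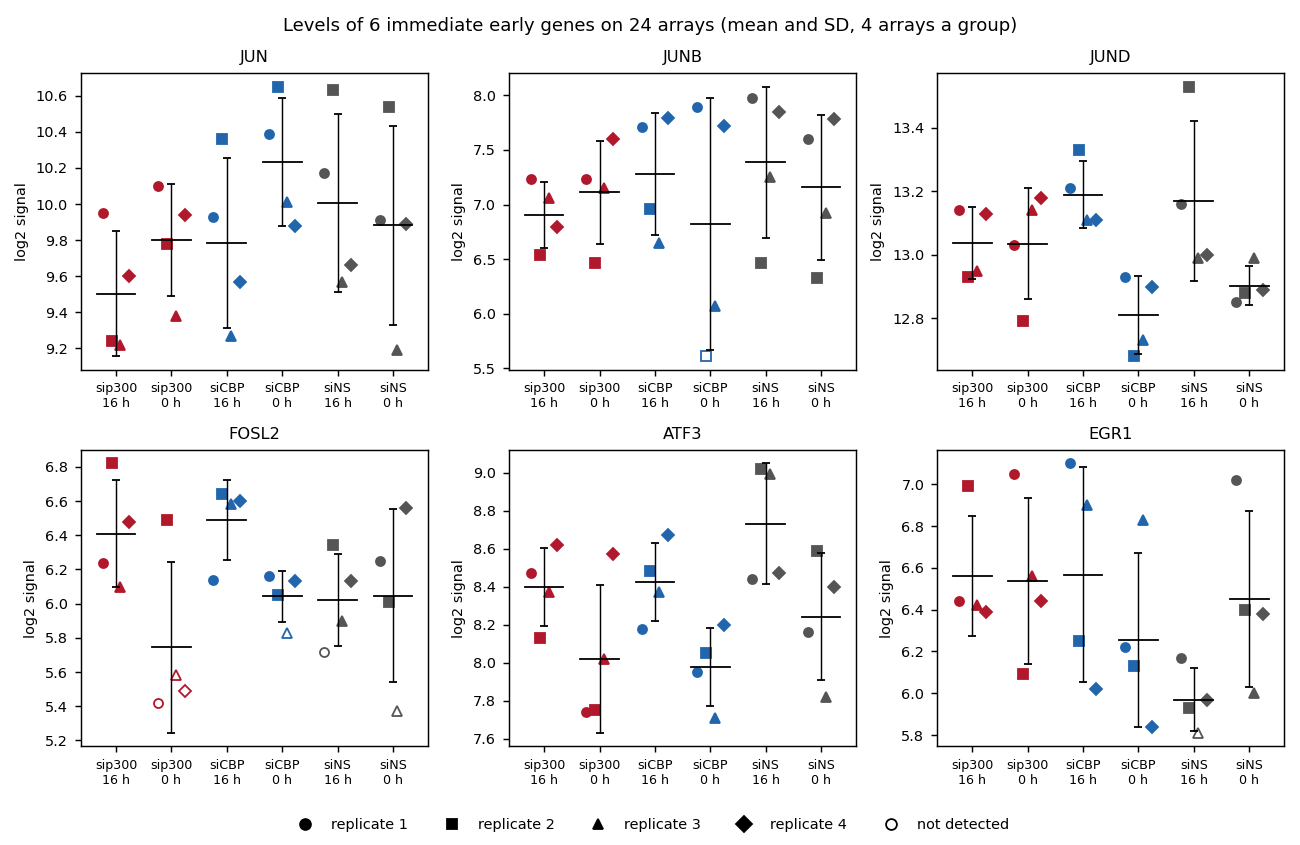
Log2 signal of JUN, JUNB, JUND, FOSL2, ATF3 and EGR1 on each of the 24 arrays by group; symbols give the replicate number, open symbols arrays on which the probe was not detected, horizontal lines the group mean and bars the SD (n = 4), with a separate vertical scale for each gene. ATF3 is higher on average with DHT in each arm (by 0.38, 0.44 and 0.49), and JUNB on replicate 2 is low in each group.

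The directions of the 7 genes were mixed in each comparison but sip300 against siCBP with DHT, where all 7 differences lay between -0.37 and -0.01 and none was called. The median of their DHT differences was 0.00 in sip300 cells, 0.38 in siCBP cells and 0.12 in siNS cells, against -0.02 over all genes in each arm. The median of the sip300 minus siNS differences was -0.05 without DHT and -0.13 with it, against 0.03 over all genes at both times, and that of the siCBP minus siNS differences was -0.09 without DHT and 0.02 with it, against 0.00. In siCBP cells limma called 0 of 7 members against siNS at either time (1 at an unadjusted p under 0.05 at each time), where 0.0482% of genes were called at each time. It called 0 of 7 for DHT in siCBP cells and 0 of 7 for DHT in siNS cells (2 each at an unadjusted p under 0.05), where 2.23% and 2.69% of genes were called. For sip300 against siNS with DHT it called 0 of 7 (1 at an unadjusted p under 0.05), where 14.6% of genes were called. For siCBP against siNS averaged over both times it called 0 of 7 (1 at an unadjusted p under 0.05), with 0.346% of genes called, and for sip300 against siCBP with DHT 0 of 7 (0 at an unadjusted p under 0.05), with 9.73%. For the difference in DHT response between siCBP and siNS cells it called 0 of 7 (1 at an unadjusted p under 0.05) and 0% of genes (196 genes at an unadjusted p under 0.05). With the replicate block the number of members called stayed at 0 in each of these comparisons, while those at an unadjusted p under 0.05 were 1 and 3 for siCBP against siNS without and with DHT, 5 and 3 for DHT in siCBP and siNS cells, 2 for sip300 against siNS with DHT, 2 for siCBP against siNS averaged, 0 for sip300 against siCBP with DHT and 2 for the siCBP difference in response. Comparisons with siNS share its arrays and are not independent of each other.

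**Figure D4:**
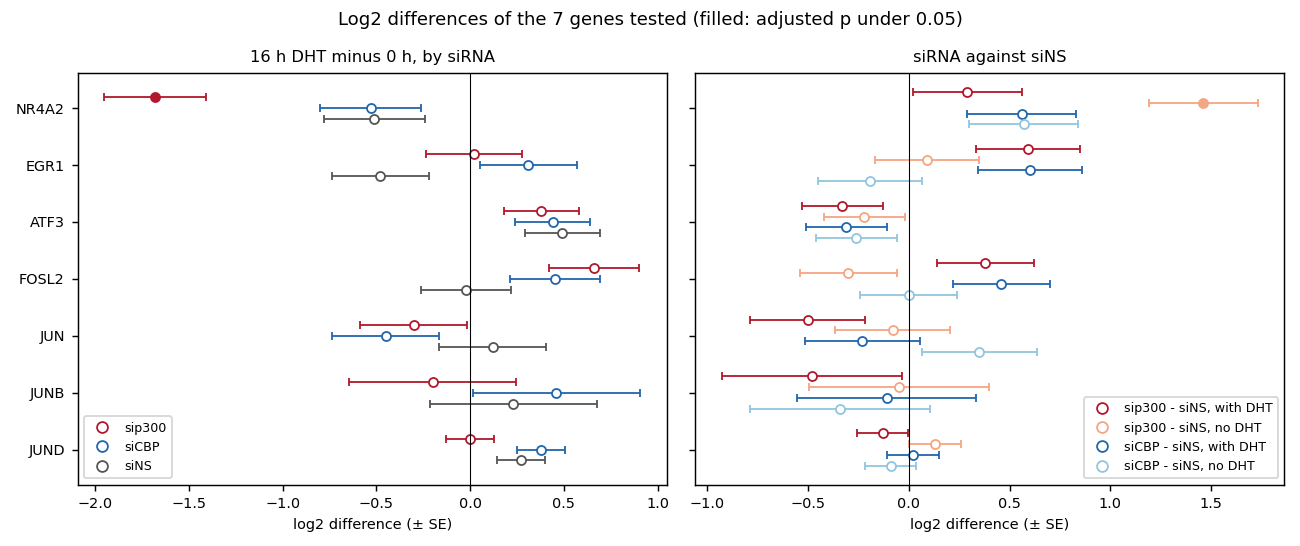
Log2 differences (points, with bars of 1 SE) for the 7 genes tested, left for 16 h of DHT minus 0 h within each siRNA arm and right for each knockdown minus siNS at each time; filled points have an adjusted p under 0.05. Only 2 points are filled, NR4A2 with DHT in sip300 cells (-1.68) and NR4A2 in sip300 against siNS cells without DHT (1.46); the NR4A2 differences from siNS cells with DHT rest on a background signal.

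Across the 24 arrays, with each replicate number's mean removed, the genes closest to NR4A2 were RRAGC (Pearson r = 0.87), a GTPase of the amino acid sensing branch of mTORC1, ADM (0.85), which encodes the peptide hormone adrenomedullin, and ZSWIM5 (0.85). Without that centring the correlations of these genes were 0.66, 0.73 and 0.75. The genes closest to ATF3 were DIPK2A (0.81), CYP2U1 (0.79), a fatty acid hydroxylase, and GNAI3 (0.79), an inhibitory G protein subunit. Among the members themselves the largest uncentred correlation was between JUND and ATF3 (0.57), and that of NR4A2 with ATF3 was -0.48. With each group's mean removed these were 0.38 and 0.15, and the largest in size were those of NR4A2 with JUN (0.67) and JUNB (-0.64). With each replicate number's mean removed instead, NR4A2 with JUN and JUNB gave 0.27 and -0.42. On that basis JUND with ATF3 gave 0.61 and NR4A2 with ATF3 gave -0.53. All such points share arrays and groups, and the genes were the nearest of 12438, so the values describe likeness only.

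Other immediate early genes were measured for 28 of 32 on the list. Averaged over both times, 3 were higher and 7 lower in sip300 than in siNS cells, where 16.3% and 12.4% of all genes were higher and lower, and the median difference was -0.10 against 0.02 over all genes. Without DHT none was higher and 3 were lower (1 higher and 6 lower with the replicate block), where the shares of all genes were 5.52% and 4.42% (11.6% and 9.29% with the block). ZFP36L2, which promotes decay of AU-rich mRNAs, was 6.90 in sip300 cells without DHT, against 7.90 in siNS cells (-1 ± 0.31, limma adjusted p = 0.043). With DHT, 2 of 28 rose in sip300 cells, 1 in siCBP cells and 2 in siNS cells, and none fell. The shares of all genes that rose were 0.651%, 1.37% and 1.74% in these arms. With the replicate block 2 rose and none fell in sip300 cells, and 2 rose and 1 fell in siCBP cells and likewise in siNS cells. Averaged over the arms 3 rose and 3 fell, where 3.88% and 3.42% of all genes rose and fell. Between siCBP and siNS cells averaged over both times none was higher and 1 was lower, where 0.105% and 0.241% of all genes were higher and lower. The androgen- and glucocorticoid-induced kinase SGK1 rose in each arm, by 4.48, 4.13 and 4.80 in sip300, siCBP and siNS cells (limma adjusted p = 6.64e-06, 1.26e-05 and 1.19e-06). The ADP-ribosyltransferase TIPARP rose in siNS cells by 1.64 ± 0.319 (limma adjusted p = 0.00343), and the polo-like kinase PLK2 rose in sip300 cells by 1.02 ± 0.218 (limma adjusted p = 0.0211). The DHT response of TIPARP differed between sip300 and siNS cells by -1.42 ± 0.452 (limma adjusted p = 1, and adjusted p = 0.0444 with the replicate number as a block), and that of PLK2 by 0.43 ± 0.309 (limma adjusted p = 1).

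Of 12 measured among 17 other AP-1, ATF and MAF genes, 1 rose with DHT in siNS cells, the bZIP factor MAF (2.47 ± 0.538, limma adjusted p = 0.00941), and none was called in sip300 or siCBP cells (1 in each with the replicate block). The shares of all genes that rose were 0.651%, 1.37% and 1.74% in sip300, siCBP and siNS cells (1.25%, 2.48% and 3.29% with the block). The DHT response of MAF in sip300 minus siNS cells was -0.72 ± 0.761 (limma adjusted p = 1). Averaged over both times FOSL1 was higher in sip300 than in siNS cells by 0.55 ± 0.168 (limma adjusted p = 0.0167), while ATF4, the main factor of the integrated stress response, was lower (-0.34 ± 0.125, limma adjusted p = 0.0473). Of 13 measured among 19 genes of the CREB list, sip300 cells averaged over both times had 2 higher and 1 lower than siNS cells (3 and 1 with the replicate block). The shares of all genes higher and lower in this comparison, which also holds the FOSL1 and ATF4 calls, were 16.3% and 12.4% (21.7% and 16.8% with the block). PRKAR1A, a regulatory subunit of protein kinase A, was higher by 0.55 ± 0.108 (limma adjusted p = 0.000619), CRTC3, a CREB coactivator, was higher by 0.33 ± 0.0944 (limma adjusted p = 0.0113), and the clock gene PER2, a CREB target, was lower (-0.88 ± 0.104, limma adjusted p = 3.96e-06). In siCBP against siNS cells limma called 0 of the 13 without DHT, with it and on average (1, 1 and 2 at an unadjusted p under 0.05), and the block also called 0. The shares of all genes called by limma were 0.0482%, 0.0482% and 0.346%. Of the other EGR and NAB genes 3 of 5 were measured and limma called 0 in each of the 14 comparisons, with and without the block (at most 1 at an unadjusted p under 0.05).

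For upstream and partner genes the calls are given beside the shares of all genes. ELK4, a ternary complex factor that recruits to CArG boxes with serum response factor, was the 1 of 5 measured that rose with DHT, by 0.92 ± 0.205 in siCBP cells and 1.07 ± 0.205 in siNS cells (limma adjusted p = 0.0131 and 0.00272), where 1.37% and 1.74% of all genes rose. The ELK4 response in sip300 minus siNS cells was -0.64 ± 0.289 (limma adjusted p = 1), so a difference between the arms was not established. It averaged 6.78 in sip300 cells with DHT, against 7.75 in siNS cells with DHT (limma adjusted p = 0.00318). MAPK9, which encodes the kinase JNK2 that phosphorylates JUN, was the 1 of 6 JNK and p38 kinases that was lower in siCBP cells, at 9.39 against 10.37 in siNS cells at 0 h and 9.19 against 10.14 with DHT (limma adjusted p = 0.0265 and 0.0398). At each time 0.0322% of all genes were called lower in siCBP than in siNS cells. Of 8 measured ERK feedback genes 2 were lower in sip300 cells averaged over both times, SPRED2 (-0.56 ± 0.14) and SPRY1 (-0.67 ± 0.25), with limma adjusted p = 0.00459 and 0.0487, and 0 were higher (3 lower and 2 higher with the replicate block). In that comparison 12.4% of all genes were lower and 16.3% higher (16.8% and 21.7% with the block). These shares also apply to the receptors and stress genes that follow. Of the 3 retinoid X receptors, with which NR4A2 can pair, RXRA was lower (-0.57 ± 0.123) and RXRB higher (0.50 ± 0.12) in sip300 than in siNS cells averaged over both times (limma adjusted p = 0.00141 and 0.00347). Of 9 measured heat shock and handling stress genes, 1 was higher and 1 lower in that comparison: TXNIP (0.46 ± 0.171, limma adjusted p = 0.0498) and HMOX1 (-0.99 ± 0.279, limma adjusted p = 0.00999). With DHT limma called TXNIP alone of the 9, lower in siCBP cells, in siNS cells and averaged over the arms. The shares of all genes called lower there were 0.852%, 0.957% and 3.42%. None of the 9 was called with DHT in sip300 cells, where 0.708% of all genes were called.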

How the data were processed

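Single-colour Illumina expression arrays of 24 RNA samples were used, 4 per group, with groups read from the sample titles. The deposited table holds bead intensity and a detection p-value for each probe and array, per the file headers, not normalised by the authors. The deposited series values are log2 values made by the authors with limma, per the submitters' processing notes, and served as an alternative. The median of each array in those log2 values lay between 5.45 and 5.47. Replicate number accounted for a median of 1.53% of a gene's variation in them, against 19.9% in the values used here. They were fitted without a block, so adjusted p-values from them may be too small.

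The neqc function of limma 3.58.1 (R 4.3.3; offset 16) corrected background, with the negative control distribution inferred from the detection p-values, and then applied quantile normalisation and log2. Of 48118 rows, 887 were controls. A probe detected (p below 0.05) on 4 or more arrays was kept (23038; 16655 with 1 gene symbol, 4 with several, 6379 with none), and the brightest kept probe stood for its gene. One limma fit over the 6 group means gave 14 comparisons on 18 residual degrees of freedom, with Benjamini-Hochberg adjustment over 12438 genes and a call at an adjusted p under 0.05. Replicate numbers came from the titles. Arrays of the same number deviated together (60 pairs, r 0.15 to 0.596, median 0.335; different numbers, median -0.14), and 24 of 24 arrays were closest to their own number, so a fit with the number as a block was an alternative. Others were slide as a block and each slide alone, the normalisation, the filter, the probe rule, the variance model and leaving out each array. On simulated data, the test recovered 64% of changes of 1 and 94.5% of changes of 1.5 (log2) for sip300 against siNS without DHT, and 0% of changes of 0.5. For DHT averaged over the arms it recovered 54.5% of changes of 0.5. The simulation used independent normal noise, without the shared deviation of replicate numbers, and changed 200 of 12438 genes. The data gave 1236 calls for sip300 against siNS without DHT, so the recovered shares need not hold there.

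Every member is named. Of each list at most 4 called genes are named, those with the largest change, and nearest genes are named for members called at least once. The members and lists were chosen with earlier results of these data known. Several marker genes without a probe in the annotation were not analysed here.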

Additional observations from a re-analysis of the deposited data

Results flagged for a closer look

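Among 42 groups of 4 arrays (7 genes, 6 groups), 3 held 1 array whose gap to its nearest neighbour exceeded the critical share of the group's range by Dixon's test at 95%. Chance alone flags about 1 group in 20. FOSL2 in sip300 cells at 0 h read 6.49 on replicate 2, with the other arrays at 5.42 to 5.58. FOSL2 in siCBP cells at 16 h read 6.14 on replicate 1, with the others at 6.58 to 6.64. EGR1 in sip300 cells at 16 h read 6.99 on replicate 2, with the others at 6.39 to 6.44.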

How the results depend on the processing

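Of 98 member comparisons 5 were called, and of 51 values of these 5 under the alternatives 47 kept the call, 4 lost it and 0 reversed. The 4 losses came within 1 slide: on slide 1 alone the DHT change of NR4A2 was -1.26 in sip300 cells and -0.53 averaged over the arms, and its sip300 minus siNS difference without DHT was 1.42 (limma adjusted p = 0.195, 0.209 and 0.098), and on slide 2 alone the ATF3 change was 0.23 (limma adjusted p = 0.56). Each slide holds 12 of the 24 arrays. No call was lost on leaving out any 1 array. The second NR4A2 probe was not counted among these values, and by itself it gave none of the 4 NR4A2 calls. Quantile normalisation without background correction kept the 4 NR4A2 calls at smaller values, -0.71 and -0.39 for DHT in sip300 cells and averaged, and 0.61 and 0.38 for sip300 against siNS without DHT and averaged. Of 971 values of uncalled comparisons 13 became calls. The authors' processed values, which gave some of these, had less variation by replicate number and were fitted without a block. Their adjusted p-values may therefore be too small and their calls too many. In counts of members called, the authors' processed values gave 2 for DHT in sip300 cells, 1 for DHT in siCBP cells, 4 for DHT averaged, 2 for sip300 against siNS with DHT, 2 averaged, 1 for siCBP against siNS averaged and 1 for sip300 against siCBP without DHT. Probes detected on all 24 arrays left 3 members, with 0 called for DHT in sip300 cells, 1 for DHT averaged, and 0 for sip300 against siNS without DHT and averaged. Slide 1 alone gave 0, 1 and 0 for DHT in sip300 cells, DHT averaged and sip300 against siNS without DHT, and slide 2 alone gave 1 for DHT averaged. The replicate block gave 1 for sip300 against siCBP without DHT (NR4A2, limma adjusted p = 0.0173) and called FOSL2 for DHT averaged, and it changed no other member call. Leaving out 1 array gave 2 to 3 calls for DHT averaged, 1 to 2 for sip300 against siNS averaged and 0 to 1 for sip300 against siCBP without DHT; the last was 1 without replicate 2 of siCBP cells at 0 h (1.16, limma adjusted p = 0.00851), replicate 3 of sip300 cells at 0 h, replicate 4 of siCBP cells at 16 h, or replicate 2 of siNS cells at either time. ATF3 was called for sip300 against siNS averaged without replicate 4 of sip300 cells at 0 h (-0.37, limma adjusted p = 0.0422).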
